A study of Mus musculus with 9 samples.

Results

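The genes described here are 10 genes of glucose use: the glucose transporter genes Slc2a1 and Slc2a3, and 8 genes of glycolytic and lactate-forming enzymes, Hk1, Aldoa, Tpi1, Gapdh, Pgk1, Pgam1, Eno1 and Ldha. They were chosen by name, with no expression value in the rule. All 10 are among the 13698 genes of the deposited expression table, and all 10 have a mean level above 10 CPM. CPM is a gene's read count scaled to a common library total. The deposited values were read as quantile-normalised log2 CPM, so a CPM given here is a normalised level and not a plain scaled count.

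The RNA came from regulatory T (Treg) cells, the CD4 T cells that restrain immune responses, sorted from spleen and lymph node of female mice of a C56Bl6/129 mix background. There were 9 libraries, 3 in each of 3 groups, and no age is given in the sources used here. The deficient cells lacked Thpok and LRF, which are zinc finger factors made from the genes Zbtb7b and Zbtb7a. These cells were sorted as YFP+MHCII- from 3 mice of genotype LRFffThpokff Foxp3 Cre-YFP/X, numbered 142114, 232614 and 432614, in which Cre is made from a Foxp3 allele and deletes the floxed genes only in cells that use that allele. The genetic controls were YFP+MHCII- cells of 3 other mice, numbered 124, 8619 and 8800, of genotype WT Foxp3 Cre-YFP/X, which carry the same Cre allele and intact Thpok and LRF genes. The animal controls were YFP-MHCII-CD25hi cells of the same 3 mice as the deficient cells; they carry the floxed alleles, use the unmodified Foxp3 allele on the other X chromosome and keep both factors. The deficient cells therefore share their mice with the animal controls and their Foxp3 allele with the genetic controls.

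Glycolysis breaks glucose down to pyruvate in the cytosol and yields ATP, NADH and building blocks for growth. Glucose enters T cells through facilitative transporters, chiefly GLUT1 and GLUT3; hexokinase traps it as glucose 6-phosphate, aldolase splits the sugar bisphosphate, and the later enzymes harvest ATP before lactate dehydrogenase regenerates NAD+. Activated effector T cells depend strongly on this pathway, while Treg cells are known for relying more on mitochondrial oxidation and for lower glucose uptake. Many genes of the pathway are known targets of HIF-1, which binds the core letters ACGTG or GCGTG, and of Myc, which binds the E-box CACGTG.

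The 250 bases upstream of the RefSeq transcription start (build GRCm38.p6, the most upstream start of each gene in that table) are shown for 3 of the genes, because their levels behaved differently: Eno1 had the lowest adjusted p of the 10, Gapdh varied least across the libraries, and Ldha had the highest level and the most HIF-type letters. Capitals mark every match, on either strand, to ACGTG or GCGTG, and a match to CACGTG, which holds ACGTG on both strands, is also in capitals. Each sequence is on the strand of its gene, 5′ to 3′.
Eno1, chr4:150236458-150236707, plus strand: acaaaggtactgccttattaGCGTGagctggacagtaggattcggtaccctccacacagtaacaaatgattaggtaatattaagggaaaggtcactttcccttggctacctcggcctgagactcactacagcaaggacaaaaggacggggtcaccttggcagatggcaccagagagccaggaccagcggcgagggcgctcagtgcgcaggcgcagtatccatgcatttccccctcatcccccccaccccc
Gapdh, chr6:125165774-125166023, minus strand: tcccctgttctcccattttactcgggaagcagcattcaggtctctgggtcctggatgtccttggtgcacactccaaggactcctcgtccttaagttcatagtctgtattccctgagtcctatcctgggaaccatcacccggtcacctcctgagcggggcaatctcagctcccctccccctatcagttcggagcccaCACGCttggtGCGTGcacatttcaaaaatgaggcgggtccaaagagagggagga
Ldha, chr7:46845554-46845803, plus strand: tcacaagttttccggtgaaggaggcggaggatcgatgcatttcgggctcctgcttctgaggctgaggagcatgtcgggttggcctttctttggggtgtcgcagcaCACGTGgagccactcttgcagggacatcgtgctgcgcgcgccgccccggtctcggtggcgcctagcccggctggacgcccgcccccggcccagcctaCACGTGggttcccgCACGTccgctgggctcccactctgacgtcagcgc
The Ldha window held 5 matches to ACGTG, counted on both strands, among them the strand pairs of 2 CACGTG boxes. The Eno1 window held 1 GCGTG and the Gapdh window 2. The windows of Pgk1, Pgam1 and Slc2a1 also held ACGTG or GCGTG, those of Aldoa, Tpi1 and Hk1 held neither, and Slc2a3 had no window in the table. Of 27025 mouse promoter windows of this length, 16.5% held ACGTG, 28.3% GCGTG, 38.6% either of them and 6.04% CACGTG. A match is only a run of letters; no binding was measured here.

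The labels were checked against the deleted genes and the markers of each cell type. Zbtb7b was at 0.260 ± 0.110 CPM in deficient cells, 115 ± 30.3 CPM in genetic controls and 93.7 ± 15.0 CPM in animal controls (SD, n = 3 each). Zbtb7a was at 89.5, 90.3 and 112 CPM in those groups, a gene total that does not test the deletion of floxed exons. Foxp3, the defining Treg factor, was at 32.2 CPM in deficient cells, 33.3 CPM in genetic controls and 905 CPM in animal controls, so both YFP+ groups had low Foxp3 transcript in this table. The other Treg markers did not all follow it. Il2ra was called lower in deficient cells than in animal controls (473 and 769.9 CPM, adjusted p = 0.0497, limma). It encodes CD25, and only the animal controls were sorted as CD25hi, so the effect of that sort cannot be told apart. In deficient cells, genetic controls and animal controls, Ikzf2 was at 316, 311 and 440 CPM and Tnfrsf18 at 189, 236 and 299 CPM. Il2rb was at 1590, 1653 and 1622 CPM and Ctla4 at 55.7, 52.7 and 45.5 CPM in the same order. None of these was called. Of the 7 Treg markers, 6 had a negative difference from animal controls in deficient cells and 1 a positive one. The deficient libraries lay wholly below the animal controls for 4 of them (8.1% of all genes). Cd4 was called lower in deficient cells, at 355 CPM, against 866 CPM in genetic controls (adjusted p = 0.00488) and 889 CPM in animal controls (adjusted p = 0.00338). CD8 T cell markers summed to 585 to 593 CPM in deficient cells, 28.3 to 85.0 CPM in genetic controls and 64.4 to 105 CPM in animal controls. The 2 genes, Cd8a and Cd8b1, were called higher in deficient cells than in genetic controls (0.336% of all genes were). Against animal controls 1 of the 2 was called higher (0.307% of all genes). Myeloid markers (4 of 9 measured) summed to 11.0 to 64.3 CPM in deficient cells, 14.2 to 326 CPM in genetic controls and 1.08 to 6.94 CPM in animal controls, and the highest sum was in genetic control 8619, which also had the highest erythroid and platelet sum (76.1 CPM). B cell markers (4 of 7 measured) summed to 688 to 910 CPM in deficient cells, 692 to 1102 CPM in genetic controls and 1312 to 1820 CPM in animal controls. Most of that sum was Ighm; Cd79b was at 54.3 CPM in deficient cells, 17.7 CPM in genetic controls and 59.7 CPM in animal controls (adjusted p = 0.0984 against genetic controls, limma). The part of cells other than Treg cells in the results below was not tested, nor whether the CD8 transcripts came from the deficient Treg cells themselves. The differences of Eno1, Tpi1, Pgk1, Pgam1 and Slc2a3 from genetic controls, and the median over the 10 genes, are also given without library 8619. Read depth is unknown, since all libraries were normalised to nearly the same total, so no counting error is given.

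Eno1, encoding the ubiquitous enolase that makes phosphoenolpyruvate, was the single gene of the 10 called different in any comparison: it was lower in deficient cells than in genetic controls, with a fitted ratio of 0.669. The call used limma-trend across all genes with Benjamini-Hochberg adjustment, at an adjusted p under 0.05, a rule that called 0.869% of all genes in that comparison and 0.533% as lower. Another gene, Ldha, joined it at an unadjusted p under 0.05, which 10.6% of all genes reached. Against genetic controls 4 of the 10 genes had a positive difference and 6 a negative one, with a median log2 difference of -0.11 beside 0.04 over all genes; without genetic control 8619 the median of the 10 genes was -0.0106. Against animal controls none of the 10 genes was called by limma, where 0.891% of all genes were, and 3 had an unadjusted p under 0.05, beside 11.9% of all genes. The deficient libraries lay wholly above the genetic controls for 2 of the 10 genes (8.44% of all genes) and wholly below them for 2 (7.28%); against animal controls this held for 1 above (7.85%) and 2 below (8.1%). Genetic controls lay wholly above animal controls for 1 gene (4.88%) and wholly below for 3 (5.57%). All 8 enzymes had a negative difference against animal controls, as did 6495 of all 13698 genes. These 8 differences ran from -0.46 for Aldoa to -0.03 for Gapdh, so some were close to 0. The median of the 10 genes was -0.14, beside 0.04 over all genes. With the mouse as a fixed term, which uses the shared animals, no gene of the table was called against animal controls, against 122 without it. That fit spends a term on each mouse, which leaves little of the 9 libraries to estimate the spread. With the mouse as a random term 148 genes were called. Between genetic and animal controls none of the 10 genes was called, where 0.0365% of all genes were, and 3 had an unadjusted p under 0.05, beside 6.62% of all genes. In bulk RNA, fewer cells that express a gene and less of its RNA per cell cannot be told apart.

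**Figure D1:**
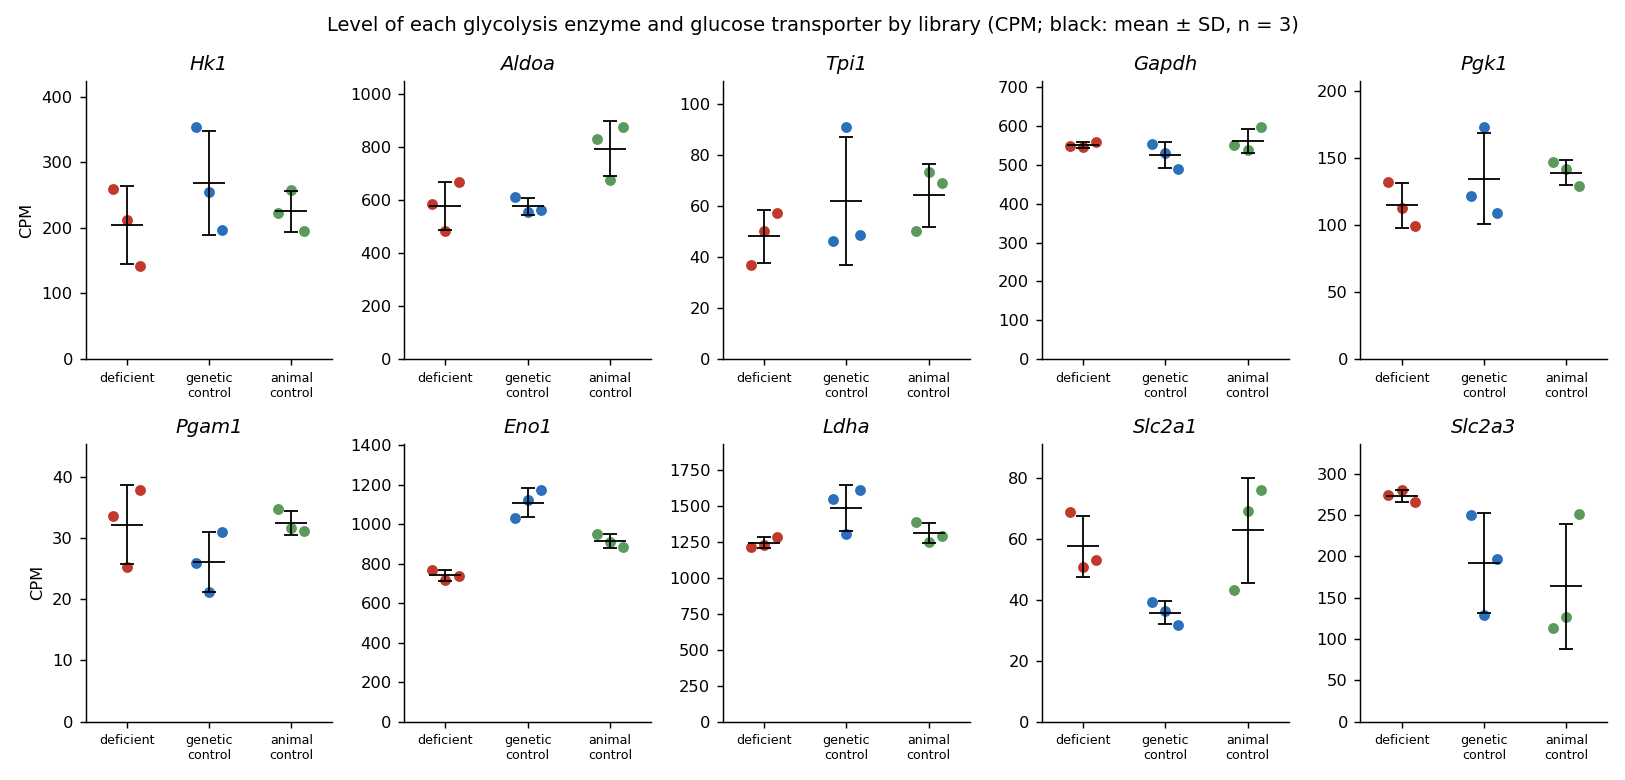
Level of each of the 10 genes in CPM (linear axis from 0) in every library, with deficient cells, genetic controls and animal controls from left to right; points are libraries and black marks the mean ± SD of 3. Eno1 lies at 718 to 769 CPM in deficient cells, below 1031 to 1173 CPM in genetic controls and 882 to 951 CPM in animal controls, while Gapdh is nearly level across all 9 libraries.

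The transporter genes did not pass the test in any comparison. Slc2a3 (GRCm38, chr6:122727809-122801640, minus strand) encodes GLUT3, a high-affinity transporter. It had 273.9, 280.3 and 265.6 CPM in deficient cells, against 250.3, 129.1 and 197.0 CPM in genetic controls and 113.9, 126.2 and 251.0 CPM in animal controls. All 3 deficient libraries lay above every control library and close to each other, while the controls were scattered. The log2 difference was 0.83 ± 0.32 (SE) against animal controls, with an unadjusted p of 0.0259 and an adjusted p of 0.340 by limma, and 0.56 ± 0.32 against genetic controls, with an adjusted p of 0.576. Without genetic control 8619, the lowest of its group, the second difference was 0.299.

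Slc2a1 (GRCm38, chr4:119108711-119137983, plus strand) encodes GLUT1, the transporter that activated T cells raise. It had 68.93, 50.84 and 52.96 CPM in deficient cells, against 39.23, 36.25 and 31.81 CPM in genetic controls and 43.29, 69.06 and 76.09 CPM in animal controls. The deficient libraries were all above the genetic controls and overlapped the animal controls, and the highest and lowest values of all 9 libraries were both in controls. The log2 difference was 0.68 ± 0.31 against genetic controls (adjusted p = 0.475, limma) and -0.10 ± 0.31 against animal controls, with a 95% interval of -0.78 to 0.58; genetic minus animal controls gave -0.78 ± 0.31 (unadjusted p = 0.0296, adjusted p = 0.714). Slc2a3 and Slc2a1 together summed to 331 ± 12.2 CPM in deficient cells, 228 ± 62.1 CPM in genetic controls and 227 ± 89.2 CPM in animal controls. Per kilobase of transcript, Slc2a3 made up 79.7% of the pair in deficient cells, 80.7% in genetic controls and 67.2% in animal controls.

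Hk1 (GRCm38, chr10:62268855-62379908, minus strand) encodes hexokinase 1, which traps glucose in the cell. It had 259.3, 212.0 and 141.6 CPM in deficient cells, against 353.2, 254.4 and 197.3 CPM in genetic controls and 222.8, 257.6 and 194.7 CPM in animal controls. The groups overlapped, and the differences were -0.40 ± 0.27 against genetic controls (adjusted p = 0.662, limma; 95% interval -0.99 to 0.20) and -0.17 ± 0.27 against animal controls (adjusted p = 0.876; 95% interval -0.77 to 0.42). Hk2, the hexokinase that growth signals induce, was far lower, at 9.83 CPM in deficient cells, 5.26 CPM in genetic controls and 3.59 CPM in animal controls, so Hk1 made up at least 93.0% of the Hk1 and Hk2 transcript per kilobase in every library.

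Aldoa (GRCm38, chr7:126795234-126800751, minus strand) encodes aldolase A, which splits fructose 1,6-bisphosphate into triose phosphates. It had 584.2, 484.0 and 666.8 CPM in deficient cells, against 612.6, 554.3 and 563.2 CPM in genetic controls and 829.9, 676.3 and 874.2 CPM in animal controls. Both YFP+ groups were lower than the animal controls without overlap, and the deficient cells could not be separated from the genetic controls. The log2 difference was -0.46 ± 0.14 against animal controls (unadjusted p = 0.00812, adjusted p = 0.209, limma), -0.01 ± 0.14 against genetic controls (adjusted p = 1; 95% interval -0.32 to 0.30), and -0.45 ± 0.14 for genetic minus animal controls (unadjusted p = 0.00881, adjusted p = 0.546). Within mice, the log2 difference of Aldoa was -0.51 in mouse 142114, -0.48 in 232614 and -0.39 in 432614.

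Tpi1 (GRCm38, chr6:124810586-124814296, minus strand) encodes triosephosphate isomerase, which interconverts the triose phosphates. It had 36.93, 50.32 and 57.15 CPM in deficient cells, against 46.27, 90.91 and 48.64 CPM in genetic controls and 50.25, 73.29 and 69.18 CPM in animal controls. The highest value was in genetic control 8619, and the groups overlapped. The differences were -0.32 ± 0.34 against genetic controls (adjusted p = 0.819, limma; 95% interval -1.08 to 0.45), which came to -0.0026 without library 8619, and -0.42 ± 0.34 against animal controls (adjusted p = 0.716; 95% interval -1.19 to 0.34).

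Gapdh (GRCm38, chr6:125161715-125166467, minus strand), encoding the glyceraldehyde-3-phosphate dehydrogenase that makes the first NADH of the pathway, was the steadiest of the 10 genes. It had 549.1, 545.8 and 559.1 CPM in deficient cells, against 555.3, 530.1 and 489.9 CPM in genetic controls and 551.1, 539.3 and 596.9 CPM in animal controls. Its range over all 9 libraries was 0.28 on the log2 scale, beside 0.40 for Ldha, the next steadiest, and 1.32 for Hk1, the widest. The difference was 0.07 against genetic controls (adjusted p = 0.852, limma; 95% interval -0.14 to 0.28) and -0.03 against animal controls (adjusted p = 0.964; 95% interval -0.24 to 0.18). Gapdh has 77 other genes of at least 95% identity over 300 bases or more in the GENCODE M21 transcripts, 74 of them pseudogenes, and the 8 that are in the table held 1.11% to 1.21% of the summed level.

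Pgk1 (GRCm38, chrX:106187100-106203699, plus strand) and Pgam1 (chr19:41911923-41918660, plus strand) encode phosphoglycerate kinase, which makes the first ATP of the pathway, and phosphoglycerate mutase. Pgk1 had 132.1, 112.5 and 98.93 CPM in deficient cells, against 121.5, 172.7 and 109.2 CPM in genetic controls and 146.6, 141.4 and 128.9 CPM in animal controls. The highest value was in genetic control 8619. The differences of Pgk1 were -0.21 ± 0.22 against genetic controls (adjusted p = 0.805, limma), which came to -0.0186 without that library, and -0.29 ± 0.22 against animal controls (adjusted p = 0.685). Pgam1 had 33.48, 25.16 and 37.79 CPM in deficient cells, against 25.91, 21.21 and 30.97 CPM in genetic controls and 34.63, 31.58 and 31.06 CPM in animal controls. Its differences were 0.30 ± 0.34 against genetic controls (adjusted p = 0.822), or 0.162 without library 8619, and -0.03 ± 0.34 against animal controls (adjusted p = 0.995). Deficient libraries overlapped those of both controls for each gene, and the intervals of Pgam1, -0.46 to 1.06 and -0.79 to 0.73, leave sizeable differences in either direction undecided at this number of libraries.

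Eno1 lies on chromosome 4 (GRCm38, chr4:150236721-150248879, plus strand), and its transcript was lowest in the deficient cells. It had 768.9, 717.9 and 735.5 CPM in deficient cells, against 1031, 1124 and 1173 CPM in genetic controls and 950.9, 911.6 and 882.2 CPM in animal controls. The 3 groups did not overlap at all: every deficient library was below every animal control library, and every animal control library below every genetic control library. The log2 difference was -0.58 ± 0.08 against genetic controls (95% interval -0.76 to -0.40; adjusted p = 0.0111, limma), which passed the test. It was -0.30 ± 0.08 against animal controls (unadjusted p = 0.00347, adjusted p = 0.147) and 0.28 ± 0.08 for genetic minus animal controls (unadjusted p = 0.00617, adjusted p = 0.507), neither of which did. Groups that do not overlap were found for 15.7% of all genes against genetic controls and 15.9% against animal controls. Within mice the difference was -0.31, -0.34 and -0.26 in 142114, 232614 and 432614. The call against genetic controls was lost without library 8619 (-0.57, adjusted p = 0.0563), without library 8800 (-0.54, adjusted p = 0.0539), with only the 6 libraries compared (adjusted p = 0.0676) and with limma without its trend (adjusted p = 0.462); the direction held in each. Eno1 has 2 near-identical copies in the table, Eno1b and Gm4735, which held 0.443% to 0.538% of the summed level.

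**Figure D2:**
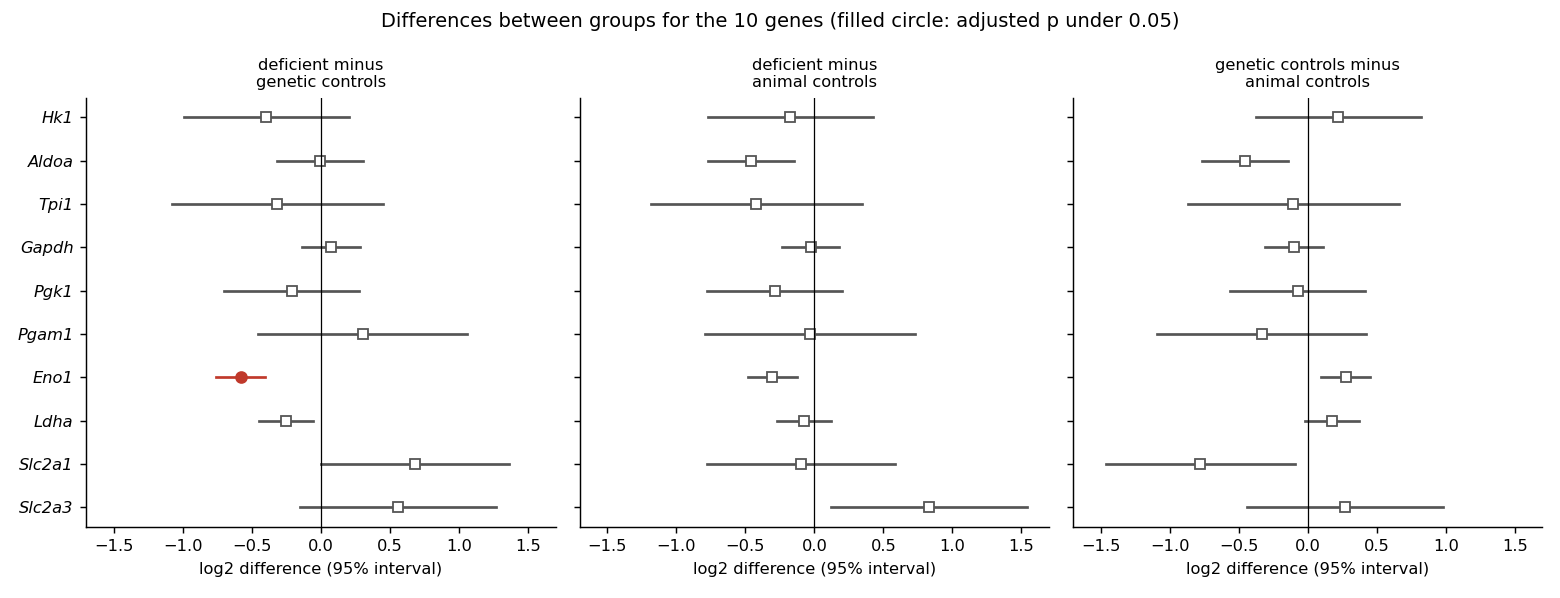
Log2 difference of each of the 10 genes with its 95% interval from limma, for deficient minus genetic controls (left), deficient minus animal controls (middle) and genetic minus animal controls (right); a filled circle has an adjusted p under 0.05 and an open square does not. The one filled circle is Eno1 against genetic controls at -0.58, and the intervals of Slc2a3 and Slc2a1 are among the widest.

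Eno3 (GRCm38, chr11:70657202-70662513, plus strand), the enolase gene best known from muscle, did not pass the test in any comparison, and its highest levels were in the deficient cells, where Eno1 was lowest. Eno3 had 95.51, 104.5 and 155.3 CPM in deficient cells, against 41.97, 20.99 and 69.57 CPM in genetic controls and 48.29, 17.72 and 44.99 CPM in animal controls. Every deficient library was above every control library, and the log2 difference was 1.55 ± 0.51 against genetic controls (unadjusted p = 0.0131, adjusted p = 0.282, limma) and 1.78 ± 0.51 against animal controls (unadjusted p = 0.00631, adjusted p = 0.190). Per kilobase, Eno3 made up 17.0 ± 3.87% of enolase transcript in deficient cells, 4.84 ± 2.39% in genetic controls and 4.94 ± 2.16% in animal controls (SD, n = 3 each). The log2 level of Eno1 exceeded that of Eno3 by 2.24 to 3.01 in deficient cells, by 4.08 to 5.74 in genetic controls and by 4.29 to 5.69 in animal controls. This ratio was looked at after the values were seen, so it is given with no test.

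**Figure D3:**
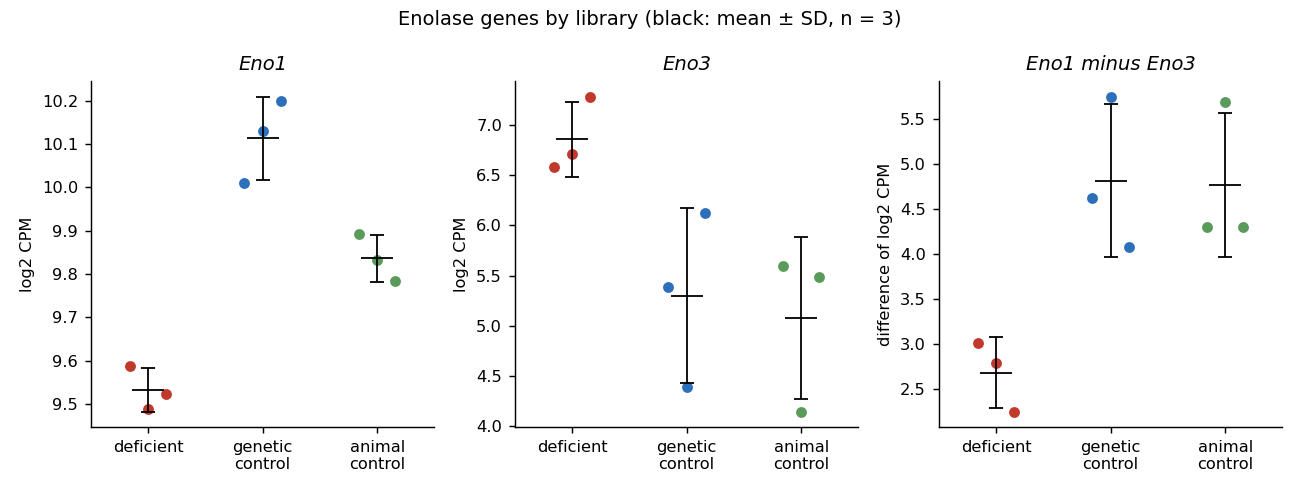
Log2 CPM of Eno1 (left) and Eno3 (middle), and their difference (right), in deficient cells, genetic controls and animal controls; points are libraries, black marks the mean ± SD of 3, and the axes do not start at 0. In deficient cells Eno1 is lowest and Eno3 highest, and the difference of 2.24 to 3.01 lies below that of all 6 control libraries.

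Ldha (GRCm38, chr7:46841475-46855627, plus strand) encodes lactate dehydrogenase A, which turns pyruvate into lactate, and it was the most abundant of the 10 genes. It had 1217, 1226 and 1287 CPM in deficient cells, against 1547, 1307 and 1610 CPM in genetic controls and 1389, 1252 and 1294 CPM in animal controls. The deficient libraries were below all genetic controls, by a small margin over library 8619, and overlapped the animal controls. The difference was -0.25 ± 0.09 against genetic controls (unadjusted p = 0.0163, adjusted p = 0.305, limma) and -0.08 ± 0.09 against animal controls (adjusted p = 0.810; 95% interval -0.27 to 0.12). Pkm, the pyruvate kinase gene one step before, was named after its values were seen; it had 1024 ± 57.9 CPM in deficient cells, 998 ± 73.4 CPM in genetic controls and 1005 ± 71.8 CPM in animal controls.

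Set in order by level per kilobase of the principal transcript, Ldha came first in every group, at 704 in deficient cells, 843 in genetic controls and 743 in animal controls. Eno1, Aldoa and Gapdh filled the next 3 places in each group, but in a different order. In deficient cells Gapdh (388 ± 4.87 CPM per kilobase), Aldoa (383 ± 60.6) and Eno1 (365 ± 12.8) lay within the spread of Aldoa. In genetic controls Eno1 (547 ± 35.4) stood above Aldoa (382 ± 20.8) and Gapdh (370 ± 23.2), which did not differ beyond their spread. In animal controls Aldoa (525 ± 68.8) and Eno1 (451 ± 17.0) overlapped, with Gapdh (396 ± 21.4) below both. The other 6 genes were far lower, between 17.7 and 69.0 CPM per kilobase in deficient cells, 11.0 and 73.7 in genetic controls and 18.3 and 76.1 in animal controls; Slc2a3 ranked 5 in deficient cells and 7 in both controls.

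The 8 enzyme transcripts summed to 3581, 3373 and 3584 CPM in deficient cells, against 4293, 4054 and 4222 CPM in genetic controls and 4176, 3883 and 4071 CPM in animal controls. All 3 deficient libraries were below all 6 control libraries. Without Eno1 the sums were 2772 ± 102 CPM in deficient cells, 3080 ± 168 CPM in genetic controls and 3128 ± 137 CPM in animal controls, and the deficient libraries were still below all 6 control libraries. Without Eno1, Ldha and Aldoa, the 5 enzymes that remain summed to 951 ± 58.3, 1016 ± 122 and 1023 ± 19.1 CPM in deficient cells, genetic controls and animal controls, and the groups overlapped. No test was made of these sums.

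The deficient cells and animal controls came from the same animals, so each gene also has a difference within each mouse. In 6 of the 10 genes (60.0%) the difference had 1 sign in all 3 mice, beside 29.8% of all genes. The share over all genes takes in genes at the lowest value of the table, while all 10 genes lie above 10 CPM. These shares are therefore not matched for level. Eno1, Aldoa, Pgk1, Tpi1 and Ldha had a lower level in the deficient cells of every mouse, and Slc2a3 a higher one. The size was even for Eno1 and Aldoa but not for Slc2a3, whose difference was 1.27 in mouse 142114, 1.15 in 232614 and 0.08 in 432614. For Ldha it was -0.19 in mouse 142114 but close to 0 in 232614 (-0.03) and 432614 (-0.0076). Slc2a1 was 0.67 in mouse 142114 but -0.44 and -0.52 in the others, and Gapdh, Pgam1 and Hk1 were also mixed.

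**Figure D4:**
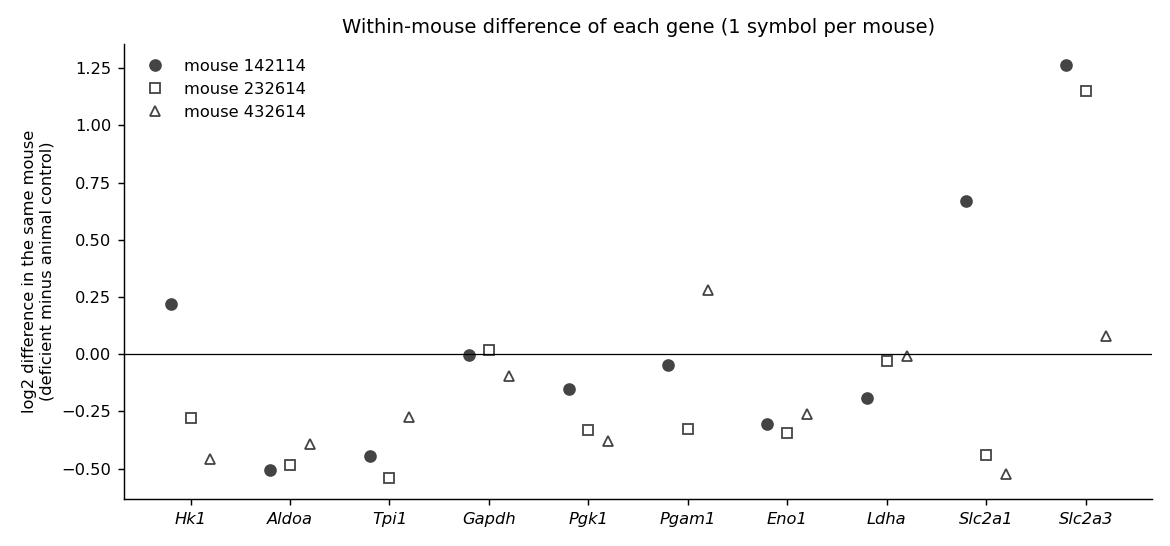
Log2 difference between deficient cells and animal controls of the same mouse (vertical axis) for each of the 10 genes, with 1 symbol per mouse. Eno1, Aldoa, Pgk1, Tpi1 and Ldha are below 0 in all 3 mice, Slc2a3 is above 0 in all 3, and the other 4 genes have both signs.

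The linked pathways showed no called gene: in 9 lists of genes chosen by function, none passed limma's adjusted threshold in any of the 3 comparisons, where 0.869%, 0.891% and 0.0365% of all genes did, so a count of 0 is near the background. Of the other glycolytic enzymes 14 of 21 were measured, with a median log2 difference of 0.34 against genetic controls and -0.08 against animal controls. Phosphofructokinase, the main control step, is encoded by 3 genes. Pfkp, the platelet-type isoform, had 269.8, 201.6 and 220.9 CPM in deficient cells, against 150.4, 158.1 and 131.3 CPM in genetic controls and 266.4, 275.0 and 185.3 CPM in animal controls. Its difference was 0.65 ± 0.20 against genetic controls (unadjusted p = 0.00832, adjusted p = 0.234, limma) and -0.71 ± 0.20 for genetic minus animal controls (adjusted p = 0.467). Pfkl, the liver-type isoform, had 78.51, 81.88 and 76.90 CPM in deficient cells, against 107.0, 95.99 and 92.76 CPM in genetic controls and 133.3, 119.6 and 112.8 CPM in animal controls. Its difference was -0.62 ± 0.19 against animal controls (unadjusted p = 0.00755, adjusted p = 0.207). Pfkp made up 67.4 ± 3.99% of phosphofructokinase transcript per kilobase in deficient cells, 51.8 ± 6.81% in genetic controls and 58.7 ± 6.40% in animal controls, a share looked at after the values were seen. Adpgk, an ADP-dependent glucokinase, was at 38.9 CPM in deficient cells and 79.8 CPM in animal controls (-1.01 ± 0.38, adjusted p = 0.334).

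Genes that steer pyruvate and lactate also stayed under the threshold. Pdk1, the mitochondrial kinase that inhibits pyruvate dehydrogenase and so the conversion of pyruvate to acetyl-CoA, was at 295 to 461 CPM in deficient cells, 250.1 to 330 CPM in genetic controls and 108 to 234 CPM in animal controls, with a difference of 1.09 ± 0.28 against animal controls (unadjusted p = 0.00323, adjusted p = 0.142, limma). Its difference was positive in all 3 mice. Genetic controls also lay above animal controls without overlap (0.83 ± 0.28, unadjusted p = 0.0152, adjusted p = 0.641, limma). Deficient cells overlapped the genetic controls, with a difference of 0.26 ± 0.28 (adjusted p = 0.815, limma). Among the lactate transporters, Slc16a1 (MCT1) was at 42.5 ± 10.1 CPM in deficient cells, 9.87 ± 10.4 CPM in genetic controls and 23.3 ± 20.5 CPM in animal controls (adjusted p = 0.540 against genetic controls). Slc16a3 (MCT4) ran the other way, at 6.39 ± 7.22 CPM in deficient cells and 23.9 ± 8.09 CPM in animal controls (-2.94 ± 1.24, adjusted p = 0.389). Of the tricarboxylic acid cycle genes, all 16 were measured and their median difference was -0.08 against genetic controls and -0.01 against animal controls. All 7 pentose phosphate genes were measured, with medians of 0.08 and 0.00 against genetic and animal controls.

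The regulators of the pathway were read from the same fit. Of the 21 measured, 13 had a negative difference from genetic controls and 14 from animal controls. Hif1a, the oxygen-regulated subunit of HIF-1, was at 263 ± 76.0 CPM in deficient cells, 313 ± 38.0 CPM in genetic controls and 420 ± 67.3 CPM in animal controls, with a difference of -0.70 ± 0.21 against animal controls (unadjusted p = 0.00792, adjusted p = 0.207, limma). Its difference within mice was -1.04, -0.71 and -0.35. Against genetic controls the difference of Hif1a was -0.28 ± 0.21 (adjusted p = 0.707, limma), and the libraries overlapped. Arnt, another listed regulator, was at 72.6 CPM in deficient cells, 94.5 CPM in genetic controls and 48.7 CPM in animal controls. Its difference was 0.55 ± 0.29 against animal controls (adjusted p = 0.499, limma) and -0.37 ± 0.29 against genetic controls (adjusted p = 0.725). Egln1, the hydroxylase that marks HIF for destruction, was at 58.0 ± 32.5 CPM in deficient cells and 134 ± 24.9 CPM in genetic controls (-1.39 ± 0.42, adjusted p = 0.238). Myc, named after its values were seen, was at 251 ± 29.8 CPM in deficient cells, 183 ± 51.4 CPM in genetic controls and 202 ± 39.5 CPM in animal controls (adjusted p = 0.502 against genetic controls and 0.670 against animal controls, limma). Epas1, encoding the hypoxia-regulated factor related to Hif1a, was at the lowest value of the table in all 3 deficient libraries and at 4.09 ± 2.12 CPM in genetic controls (adjusted p = 0.105). The 9 measured hypoxia-inducible genes outside the pathway (of 13 listed) had medians of 0.13 and -0.01 against genetic and animal controls. All 12 proliferation genes were measured, of which 9 had a negative difference from genetic controls (median -0.30) and 6 from animal controls (median 0.06). Top2a, a topoisomerase of dividing cells, was at 44.1 ± 15.5 CPM in deficient cells, 23.9 ± 13.4 CPM in genetic controls and 16.2 ± 4.73 CPM in animal controls. Its difference against animal controls was 1.42 ± 0.60 (adjusted p = 0.387, limma). Birc5, which had the lowest unadjusted p of the list, went the other way against genetic controls (adjusted p = 0.168, limma). It was at 0.0309, 6.76 and 0.195 CPM in deficient cells, genetic controls and animal controls. The part of cell division in the levels of the 10 genes was not tested.

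**Figure D5:**
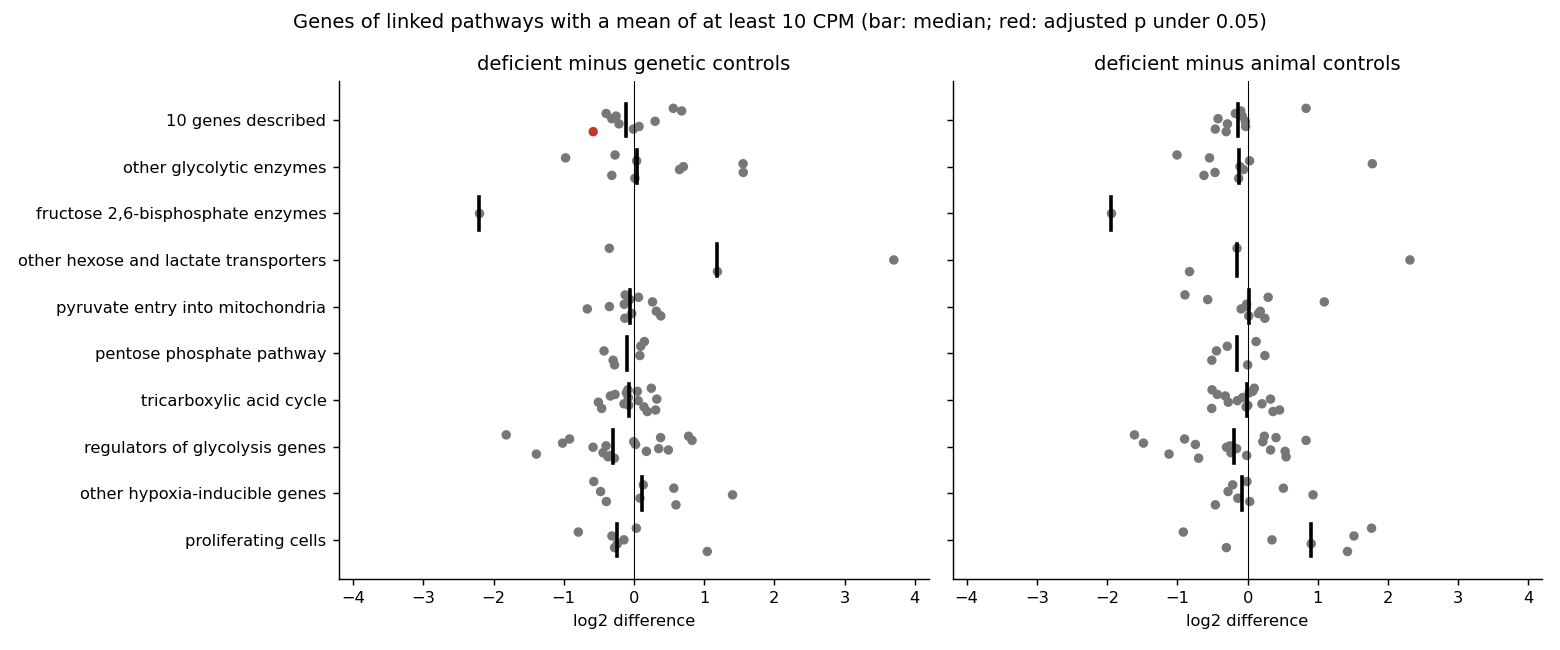
Log2 difference of single genes by function, where the gene averaged 10 CPM or more, for deficient minus genetic controls (left) and deficient minus animal controls (right); each point is a gene, bars are medians over the genes drawn (the text gives medians over all measured genes of a list), and red has an adjusted p under 0.05. Eno1 at -0.58 in the left panel is the only red point, and the 8 enzymes of the 10 genes lie below 0 in the right panel.

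The genes whose pattern over the 9 libraries was most like that of Eno1 were found by the root mean square difference of centred log2 values, outside the lists above and at a mean of at least 10 CPM. They were Imp4 (0.0716), Tapbp (0.0927), Actg1 (0.100), Atp1b3 (0.113) and Cox14 (0.115), where Eno1's own deviation from its mean was 0.244. These 5 genes were picked for their likeness to Eno1, so a lower level in deficient cells was built into the choice and is no separate support. Actg1, a cytoplasmic actin, was at 1266 CPM in deficient cells, against 1737 CPM in genetic controls (adjusted p = 0.00586, limma) and 1641 CPM in animal controls (adjusted p = 0.0135). Atp1b3, a sodium pump subunit, was called lower against genetic controls, at 658 CPM in deficient cells and 936 CPM in genetic controls (adjusted p = 0.0447), and not against animal controls (adjusted p = 0.457). For the mean of the 10 genes, which moved little (0.0773), the nearest were Tmem50a (0.0609), Gstp1 (0.0622), Nsmce1 (0.0687), Arf1 (0.0749) and Rpsa (0.0751), none of them called. A gene with no change at all would lie at 0.0773, so these distances show little shared pattern.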

How the data were processed

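RNA was extracted with the RNeasy plus micro kit and libraries were made with the SMARTer Ultra Low Input kit and Nextera XT, per the labels' protocols. The submitters' processing notes name bcl2fastq 1.8.4, STAR 2.4.0h, the mm10 build and limma; what counted the reads, on which annotation, and how counts were normalised is not stated there. The values deposited by the authors are log2 values, read from their sums (999252 to 999256 CPM per library) and shared extremes (-7.77 and 13.42) as quantile-normalised log2 CPM, so depth is unknown, changes in total RNA are removed, and 8.00% to 11.4% of genes lie at the lowest value. Of 13702 rows, 4 exact duplicates were dropped.

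Values were used as deposited. A single limma-trend model (limma 3.58.1, R 4.3.3, data.table, version 1.17.8) of 9 libraries gave 3 two-sided contrasts, adjusted by Benjamini-Hochberg over 13698 genes at 0.05; the script was tested on simulated data. The labels do not say more of how replicates were handled than that each is a mouse. Linear CPM gave means and SDs. Lengths, positions and copies (blastn 2.17.0) came from GENCODE M21, promoters from RefSeq. Tables and plots used Python 3.11.15, pandas 2.3.3, numpy 2.4.6 and matplotlib 3.10.9.

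The 10 genes, the function lists and the markers were chosen with earlier results of these data known. The rule named all 10 genes, every called member of each list and otherwise up to 4 with the lowest p, label checks, and the 5 nearest patterns; Pkm, Myc and the isozyme shares were added after their values were seen. Deficient cells and animal controls share mice, per the series' design text; same-mouse libraries had residual correlations of 0.0483, 0.0202 and 0.0170 over 7550 genes, against -0.0304 to 0.00803 for other pairs. Alternatives were the mouse as a fixed or random term, no trend, a robust prior, log2(CPM + 1), filters at 1 and 10 CPM, median centring, the 6 libraries compared alone, and leaving out each library.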

Additional observations from a re-analysis of the deposited data

How the results depend on the processing

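The call of Eno1 against genetic controls was the only one among the 10 genes, so their count of calls was 1, and it fell to 0 with limma without the trend, with only the 6 libraries compared, and without genetic control 8619 or 8800; its range over single libraries left out was 0 to 1. Its difference held its sign throughout, from -0.63 to -0.54 when 1 library was left out, with adjusted p from 0.0159 to 0.0563. The cause of the lost calls was not tested. In 3 of the 4 settings fewer libraries were used. Limma without the trend used all 9 libraries and gave the highest adjusted p of the 4 (0.462). Eno1 stayed called in 7 of the 9 fits that left out 1 library. The median difference of the 10 genes ranged from -0.114 to -0.0106 (without library 8619) against genetic controls, from -0.238 to -0.0905 against animal controls and from -0.150 to 0.0474 between the controls when 1 library was left out. Differences that were not called and changed sign under a left-out library were those of Aldoa against genetic controls (-0.12 to 0.12), Gapdh (-0.0570 to 0.0163), Pgam1 (-0.16 to 0.14), Hk1 (-0.368 to 0.0686) and Slc2a1 (-0.346 to 0.0611) against animal controls, and Pgk1 (-0.269 to 0.0620) and Tpi1 (-0.418 to 0.0689) between the controls. Birc5, a survivin gene of dividing cells at 0.0309 CPM in deficient cells and 6.76 CPM in genetic controls, had an adjusted p of 0.168 that became 0.0269 with log2(CPM + 1).

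With the mouse as a replicate block, none of the 10 genes was called against animal controls: Eno1 had an adjusted p of 0.310 with the block as a fixed term and 0.123 as a random term, and Aldoa 0.263 and 0.177. The fixed block cannot be estimated against genetic controls, which share no mice; with the random term Eno1 stayed called there (adjusted p = 0.0108). Over all genes, limma called 119 against genetic controls (22 with only the 6 libraries, 48 to 93 with 1 left out), 122 against animal controls (52 with only the 6 libraries, 58 to 115 with 1 left out, 0 with the fixed block, 148 with the random term and 143 with log2(CPM + 1)) and 5 between the controls (32 without the trend, 4 to 10 with 1 left out). With 3 libraries a group and unknown depth, differences as small as those of most of the 10 genes could not be settled.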
